A study of Mus musculus with 4 samples.

Results

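The matricellular genes of the brain scar were followed in nuclei of photothrombotic (PT) lesions and of the cortex around them. The group holds 10 genes chosen by family, out of 33696 gene features in the matrices: the thrombospondins Thbs1, Thbs2 and Thbs4, the osteonectin family members Sparc and Sparcl1, periostin (Postn), the CCN genes Ccn1, Ccn2 and Ccn3, and Cthrc1. All 10 genes had UMIs (unique molecular identifiers, each standing for 1 captured RNA molecule) in all 4 matrices, which are 2 regions of 2 libraries, and their totals ran from 192 UMIs for Thbs4 to 11508 UMIs for Sparc. The rule for choosing them was family membership and no measured value, but it was set with earlier results of these data known.

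Matricellular proteins are secreted into the extracellular matrix, where they bind collagens, growth factors and cell surface receptors more than they bear load. Many are low in resting adult tissue and are made again in wounds and scars, where myofibroblasts are a known source. In the brain, some family members are also made by astrocytes and act on synapses, with hevin (Sparcl1) and the thrombospondins the best known. The values below are nuclear RNA, so they say nothing of the secreted protein.

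PT injury is a focal cortical ischaemia made by light activation of a dye in the blood, and single-nucleus RNA sequencing was done at 21 days post-injury (dpi). The control library came from mice whose genotype label is WT. The Cxcl12-cKO library came from mice labelled Col1a2(creER); Cxcl12(flox), in which tamoxifen turns on a Cre recombinase driven by the collagen gene Col1a2, that is, in fibroblasts. Each library pooled 1 male and 1 female mouse with the same injury, and oligonucleotide tags separated lesion from perilesional parenchyma within a library. With 1 library per genotype there is no replicate check, so no p-value is given and every interval below covers counting error only. The labels give no age for these mice, and the study's methods give only a range of weeks for its mice in general, of both sexes. No source used here gives the part of Cxcl12 that is removed.

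The filter kept 21743 of 23489 barcodes. These were 8095 lesional and 2877 parenchymal nuclei in the control-labelled library, and 7933 lesional and 2838 parenchymal nuclei in the cKO-labelled library. The median depth was 2962 and 2975 UMIs per lesional nucleus, against 15915 and 16648 per parenchymal nucleus. Cxcl12 itself went against the labels. In lesional fibroblast-like nuclei it stood at 106 CPM (the UMIs of a gene scaled to the summed UMIs of a group of nuclei, as counts per 1000000) in the control-labelled library and at 215 CPM in the cKO-labelled library, a log2 ratio of 1.02 (95% interval 0.93 to 1.11). It was higher in both mice, by 1.39 between the females and 0.80 between the males on the log2 scale. Libraries are therefore named by their labels throughout, as the control-labelled library and the cKO-labelled library. Whether the 3′ tags lie outside the removed part is not given, so this gene does not settle which library carries the deletion. The cause of its higher level in the cKO-labelled library was not tested.

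Nuclei were clustered without the 10 genes. Fibroblast-like nuclei, named from their collagen and other stromal markers, made up 4141 of the lesional nuclei (51.2%) in the control-labelled library and 4067 (51.3%) in the cKO-labelled library. A change is counted as past the fold used here when 2 groups differ by 1.5-fold or more and the gene has at least 50 UMIs over both. In the control-labelled library, 5 of 10 matricellular genes were past that fold in the direction of fibroblast-like nuclei over all other lesional nuclei, where 22.9% of all 15675 genes tested were. In the cKO-labelled library, 7 of 9 were, against 19.2% of 15578 genes. In the opposite direction stood 3 of 10 genes in the first library, where 26.5% of genes did, and 1 of 9 in the other, where 28.6% did. Thbs1, Thbs2, Sparc, Ccn2 and Ccn3 lay on the fibroblast side in both libraries, and Sparcl1 lay on the other side in both.

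**Figure D1:**
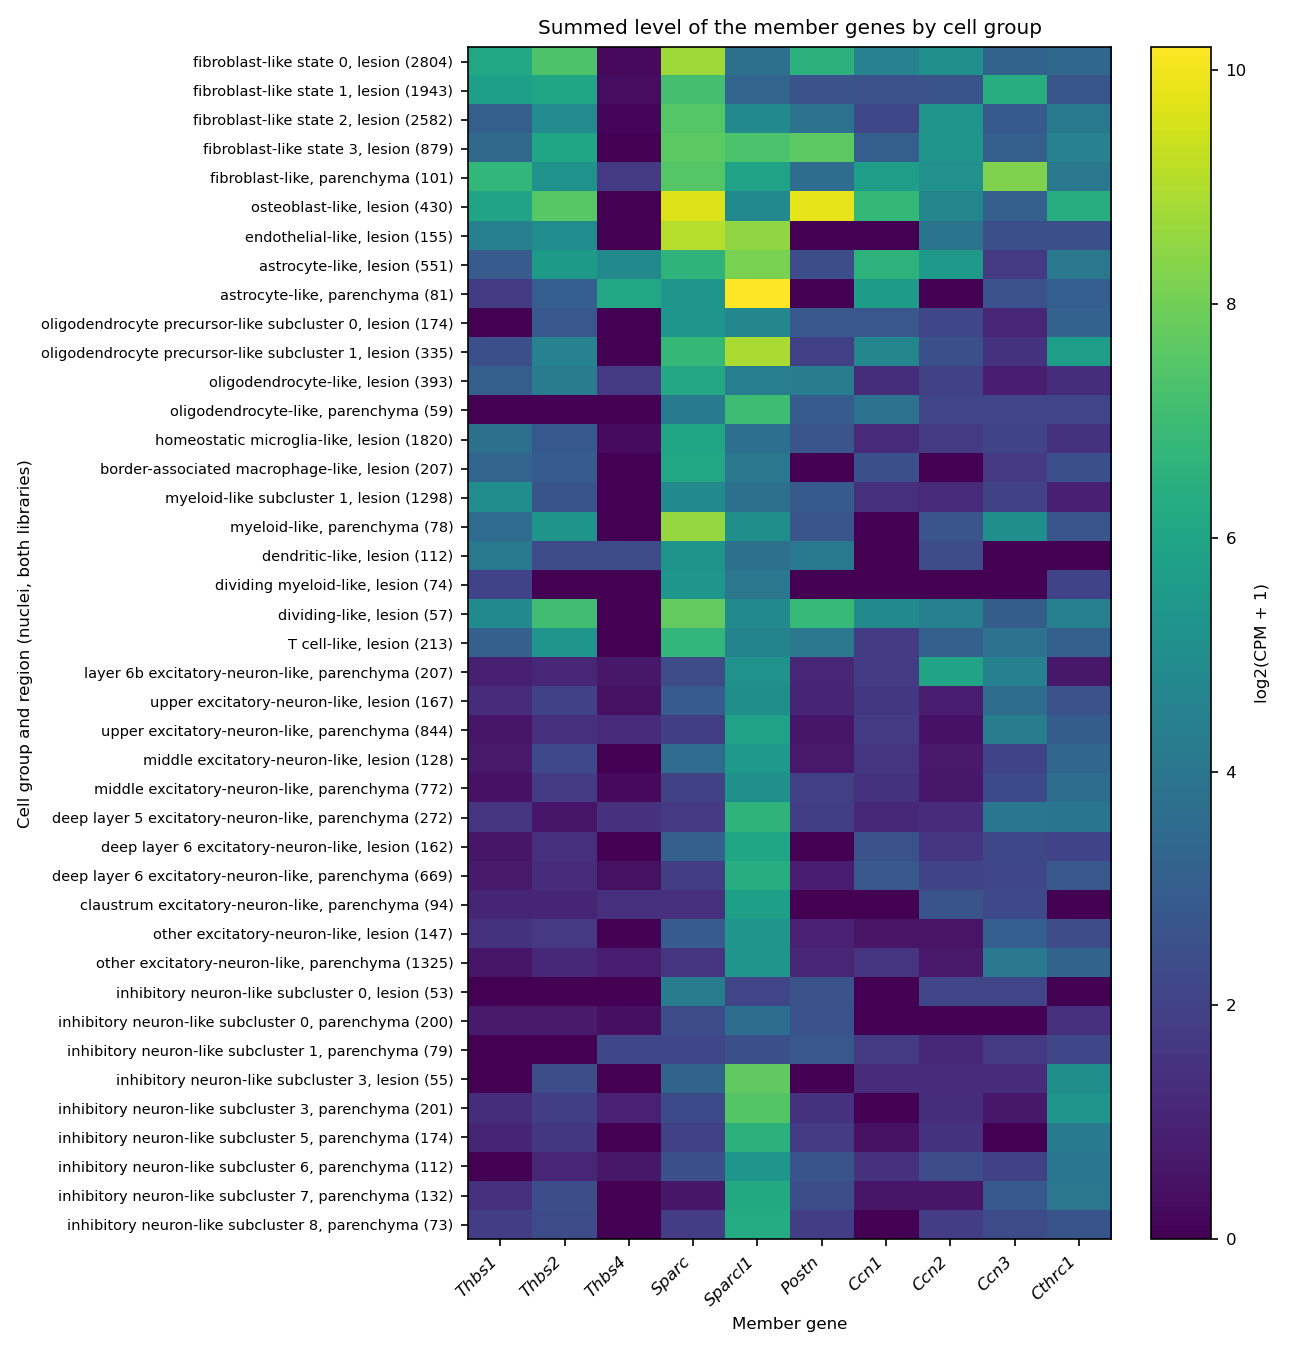
Level of each matricellular gene, as log2(CPM + 1) of UMIs summed over both libraries, in the 41 cell groups with at least 50 nuclei. Rows are cell groups with their region and number of nuclei, columns are genes. Sparc and Postn are brightest in osteoblast-like nuclei (816 and 904 CPM), Sparcl1 in parenchymal astrocyte-like nuclei (1175.0 CPM), and Thbs4 has signal in astrocyte-like nuclei of both regions (68.3 and 27.5 CPM).

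Thbs1 encodes a trimeric thrombospondin that activates latent TGFβ and restrains vessel growth through CD36 and CD47. It stood at 44.0 CPM in fibroblast-like and 12.3 CPM in the other lesional nuclei of the control-labelled library, a log2 ratio of 1.84. In the cKO-labelled library the values were 39.5 and 11.996 CPM, a log2 ratio of 1.72. Thbs1 was thus on the fibroblast side by a similar amount in each library. Among cell groups with at least 50 nuclei, the parenchymal fibroblast-like nuclei had the top level, 93.8 CPM (58.1 to 143) and 122 CPM (79.6 to 179) in 51 and 50 nuclei. The 7 fibroblast markers summed to 1215.5 and 1120.6 CPM in those nuclei, against 3908.8 and 3472.9 CPM in the lesional fibroblast-like nuclei. Outside the stroma, a lesional myeloid-like subcluster, subcluster 1, had 43.4 CPM (32.5 to 56.8) in the control-labelled library and 24.1 CPM (18.3 to 31.2) in the other, with intervals that did not overlap. Homeostatic microglia-like nuclei of the lesion were lower, at 11.9 and 13.02 CPM.

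Thbs2 encodes the related trimer that also limits angiogenesis and shapes collagen fibrils. It had 85.0 CPM in fibroblast-like against 24.9 CPM in other lesional nuclei of the control-labelled library (log2 ratio 1.77), and 92.2 against 20.9 CPM in the cKO-labelled library (2.14). Osteoblast-like nuclei, which carry Bglap, Bglap2 and Sp7, had 3 of 6 osteoblast markers raised, with 1 at 0 UMIs in the cKO-labelled library. These nuclei reached 189 and 175 CPM of Thbs2. Their summed level over both libraries, 186 CPM, had an interval that overlapped that of the highest fibroblast-like state, 161 CPM, so their order is not set.

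Thbs4 encodes a pentameric thrombospondin known from tendon, muscle and astrocytes, and it stood apart from its relatives. Lesional fibroblast-like nuclei held 2 UMIs of Thbs4 in 1 library and 3 in the other, or 0.14 and 0.21 CPM, among 4141 and 4067 nuclei. Its level was highest in astrocyte-like nuclei. In the lesion they had 42.7 CPM (30.8 to 57.7) in the control-labelled library and 18.2 CPM (12.2 to 26.1) in the cKO-labelled library, with no overlap. In the parenchyma they had 98.02 CPM (58.1 to 155) from 18 UMIs and 44.1 CPM (21.2 to 81.2) from 10 UMIs. The next group in order, lesional dendritic-like nuclei, had 4.15 CPM from 1 UMI. In the largest lesional astrocyte-like subcluster, subcluster 3, Thbs4 counted 39 UMIs in the control-labelled library and 28 in the other. By mouse, it had 0 UMIs in the 90 nuclei of the control-labelled female against 29.7 CPM in the cKO-labelled female, and 51.1 against 13.5 CPM in the males, so the mice ran in opposite directions. That subcluster, where 1 of 6 matricellular genes was past the fold, had 8.87% of all genes past 1.5-fold between libraries.

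Sparc encodes a collagen-binding glycoprotein that assists procollagen processing and fibril assembly, and it had the most UMIs of the 10 genes. It had 262 CPM in fibroblast-like against 114 CPM in other lesional nuclei of the control-labelled library (log2 ratio 1.20), and 254.5 against 84.6 CPM in the cKO-labelled library (1.59). Osteoblast-like nuclei, with 800.3 and 887 CPM, and lesional endothelial-like nuclei, with 479.7 CPM (399.9 to 571) and 619 CPM (504 to 752), were both above fibroblast-like nuclei as a whole. Parenchymal myeloid-like nuclei held 409 CPM (285 to 568) and 364 CPM (255 to 504) of Sparc in 32 and 46 nuclei. Homeostatic microglia-like nuclei of the lesion held 79.0 and 54.5 CPM, below the parenchymal level in each library with no overlap of intervals. In those lesional nuclei the collagen gene Col1a1 moved alongside, at 93.0 and 47.2 CPM.

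Sparcl1 encodes hevin, an astrocyte-secreted relative of Sparc that promotes excitatory synapses and that Sparc is known to oppose. In the lesion it lay on the other side from Sparc. Fibroblast-like nuclei had 31.2 CPM of Sparcl1 where other lesional nuclei had 95.5 CPM (log2 ratio -1.61) in the control-labelled library, and 27.9 where others had 66.8 CPM (-1.26) in the cKO-labelled library. Parenchymal astrocyte-like nuclei had the highest level, 1231 CPM (1075.5 to 1402) and 1129.8 CPM (995.7 to 1277). Oligodendrocyte precursor-like subcluster 1 followed in the lesion with 530.4 and 404 CPM, and lesional endothelial-like nuclei with 397 and 306 CPM. Neurons carried it too. Upper-layer excitatory-neuron-like nuclei of the parenchyma had 57.3 and 59.7 CPM, and inhibitory neuron-like subcluster 3 had 188 and 168 CPM.

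Postn encodes periostin, an integrin ligand of periosteum and of activated fibroblasts that helps cross-link collagen. Its balance between fibroblast-like and other nuclei was not the same in the libraries. It had 49.7 CPM in fibroblast-like against 57.1 CPM in other lesional nuclei of the control-labelled library (log2 ratio -0.20), and 64.1 against 18.1 CPM in the cKO-labelled library (1.82). The osteoblast-like nuclei belong to the other nuclei in that comparison, and they held 915 CPM (855 to 979) and 854 CPM (734 to 988) of Postn. They numbered 348, or 4.30% of lesional nuclei, in the control-labelled library and 82, or 1.03%, in the cKO-labelled library. With the osteoblast-like nuclei left out, an alternative added after the data were seen, the Postn ratios became 1.93 and 3.17, so Postn lay on the fibroblast side in both libraries. In that alternative the Ccn1 ratio in the control-labelled library moved from -0.75 to -0.13.

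Ccn1 and Ccn2 encode secreted integrin and heparan sulfate ligands that are textbook targets of TGFβ and of YAP acting through TEAD factors. Ccn2 was on the fibroblast side, with 25.9 against 8.84 CPM (log2 ratio 1.55) in the control-labelled library and 29.9 against 10.2 CPM (1.56) in the cKO-labelled library. Ccn1 was not, with 8.85 against 14.9 CPM (-0.75) and 12.7 against 15.9 CPM (-0.32). Its highest levels lay in osteoblast-like nuclei, 116 and 85.0 CPM, and in lesional astrocyte-like nuclei, 99.6 CPM (80.8 to 121) and 94.7 CPM (80.2 to 111). The intervals of those groups overlapped over both libraries, so their order is not set. Ccn2 had a neuronal site as well. Layer 6b excitatory-neuron-like nuclei of the parenchyma, of which Ccn2 is a known marker, held 66.6 CPM (55.5 to 79.3) and 56.2 CPM (45.3 to 68.8).

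Ccn3, also called Nov, encodes a family member that often counters Ccn2 in fibrotic tissue. It had the highest ratio of the group between fibroblast-like and other lesional nuclei in the control-labelled library, 33.8 against 5.36 CPM (log2 ratio 2.65), and in the cKO-labelled library it had 22.1 against 4.98 CPM (2.14). The few fibroblast-like nuclei of the parenchyma, whose fibroblast markers summed lower as given above, stood far above the lesional ones. They had 264 CPM (201 to 340) and 338 CPM (264 to 425) of Ccn3. Neurons of the upper layers had 19.3 and 17.2 CPM of Ccn3 in the parenchyma, and layer 6b nuclei had 25.7 and 15.7 CPM.

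Cthrc1 encodes a secreted collagen triple helix repeat protein that marks profibrotic myofibroblasts in several organs. At this late time it was low in the lesional fibroblast-like nuclei, 11.2 and 12.05 CPM, against 13.3 and 7.14 CPM in other lesional nuclei (log2 ratios -0.24 and 0.75). Osteoblast-like nuclei had 74.6 and 104 CPM of Cthrc1. Other cell classes also carried Cthrc1, and the highest fibroblast-like state had 21.9 CPM (16.8 to 28.2) over both libraries. Oligodendrocyte precursor-like subcluster 1 had 57.9 and 41.3 CPM, and inhibitory neuron-like subcluster 3 of the parenchyma had 25.7 CPM (18.5 to 34.9) and 51.0 CPM (41.0 to 62.7).

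Levels were also read in cells that do not make collagen, where free RNA would be seen. Lesional excitatory-neuron-like nuclei carried Sparc at 4.61% and 4.34% of the lesional fibroblast level in the control-labelled and cKO-labelled libraries, next to 5.12% and 3.12% for Col1a1, which neurons do not make. The same shares were 2.69% and 3.20% for Thbs1, 5.73% and 4.11% for Thbs2 and 6.35% and 2.46% for Postn, so neuronal UMIs of these genes sat near the level of a collagen gene. Oligodendrocyte-like nuclei of the lesion carried more, with Col1a1 at 32.7% and 19.7%, Sparc at 37.8% and 17.4%, and Postn at 42.5% and 24.5% of the fibroblast level. The Sparc and Postn values of those nuclei thus lay near that of Col1a1, and the part of free RNA in them was not tested. Thinned to 1000 UMIs per nucleus, the share of nuclei with a UMI was 21.0% (19.8% to 22.3%) and 19.6% (18.4% to 20.9%) for Sparc in lesional fibroblast-like nuclei, and 1.19% and 0.43% in lesional excitatory-neuron-like nuclei. Without thinning the Sparc shares were 46.3% and 45.8% against 14.3% and 11.9%, at median depths of 3068 and 3102 against 13947 and 12831 UMIs.

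Lesional fibroblast-like nuclei fell into 4 states when clustered again without the 10 genes. State 0 (2804 nuclei) carried all 6 of 6 markers of the late inner state and is called late inner-like. State 1 (1943 nuclei), led by Slco4a1, Hs3st1 and Afap1l1, stays unnamed. State 2 (2582 nuclei), led by Igfbp3, Slc7a14 and Ranbp3l, and state 3 (879 nuclei), led by Gm30613, Dcdc2a and Prex2, are both leptomeningeal-like. Of the 9 matricellular genes with enough UMIs, 9 differed by more than 2-fold between their highest and lowest state, as did 29.3% of the 14299 genes tested, and Thbs4 had 0 to 2 UMIs per state. In late inner-like state 0, 5 of 9 genes were past 1.5-fold above the other fibroblast-like nuclei, where 10.7% of all genes were. Those were Thbs1, Thbs2, Sparc, Postn and Ccn1. The counts were 1 of 9 in state 1, with 6.23% of all genes, 2 of 9 in state 2, with 8.29%, and 3 of 9 in state 3, with 11.2%.

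In late inner-like state 0, Sparc had 423 CPM over both libraries (410.1 to 435), against 196, 179 and 146 CPM in states 3, 2 and 1. A Sparc UMI was found in 66.3% of state 0 nuclei (64.5% to 68.0%) and in 37.4%, 33.8% and 36.9% of nuclei in states 1, 2 and 3. Thbs2 had 161 CPM in state 0 (153 to 169), against 63.0, 62.8 and 29.4 CPM in states 3, 1 and 2. These genes shared the same top state, and for Thbs2 the values of states 3 and 1 cannot be ordered. Thbs1 had 67.5 CPM in state 0 and 53.1 CPM in state 1, well above 10.4 and 7.60 CPM in states 3 and 2. Ccn1 had 21.8 CPM in state 0 and 3.68 to 7.56 CPM elsewhere, with the lower 3 states overlapping their neighbours.

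Other matricellular genes had other top states. Ccn3 was the gene of state 1, with 81.4 CPM (75.2 to 87.9) against 6.34 to 8.76 CPM in the remaining states, which overlapped their neighbours. Sparcl1 and Postn were highest in leptomeningeal-like state 3, Sparcl1 with 157 CPM (142 to 172) against 27.4, 12.6 and 9.11 CPM in states 2, 0 and 1. Postn had 196 CPM in state 3 (179.6 to 213), 93.1 CPM in state 0, 13.2 CPM in state 2 and 5.06 CPM in state 1, an order in which no neighbours overlapped. Postn was the only one of the 9 genes counted past the fold in both state 0 and state 3. Ccn2 was alike in states 2, 3 and 0, at 39.2, 38.5 and 33.9 CPM with overlapping intervals, and low in state 1, at 5.31 CPM. Cthrc1 had 21.9 and 16.5 CPM in states 3 and 2, which overlapped, and 9.73 and 5.69 CPM in states 0 and 1. The top state depended on the clustering. At resolution 0.5, which gave 9 states, Sparcl1 stayed highest in a leptomeningeal-like state. Postn was then highest in a late inner-like state of 334 nuclei, and Ccn2 in another late inner-like state, of 367 nuclei.

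**Figure D2:**
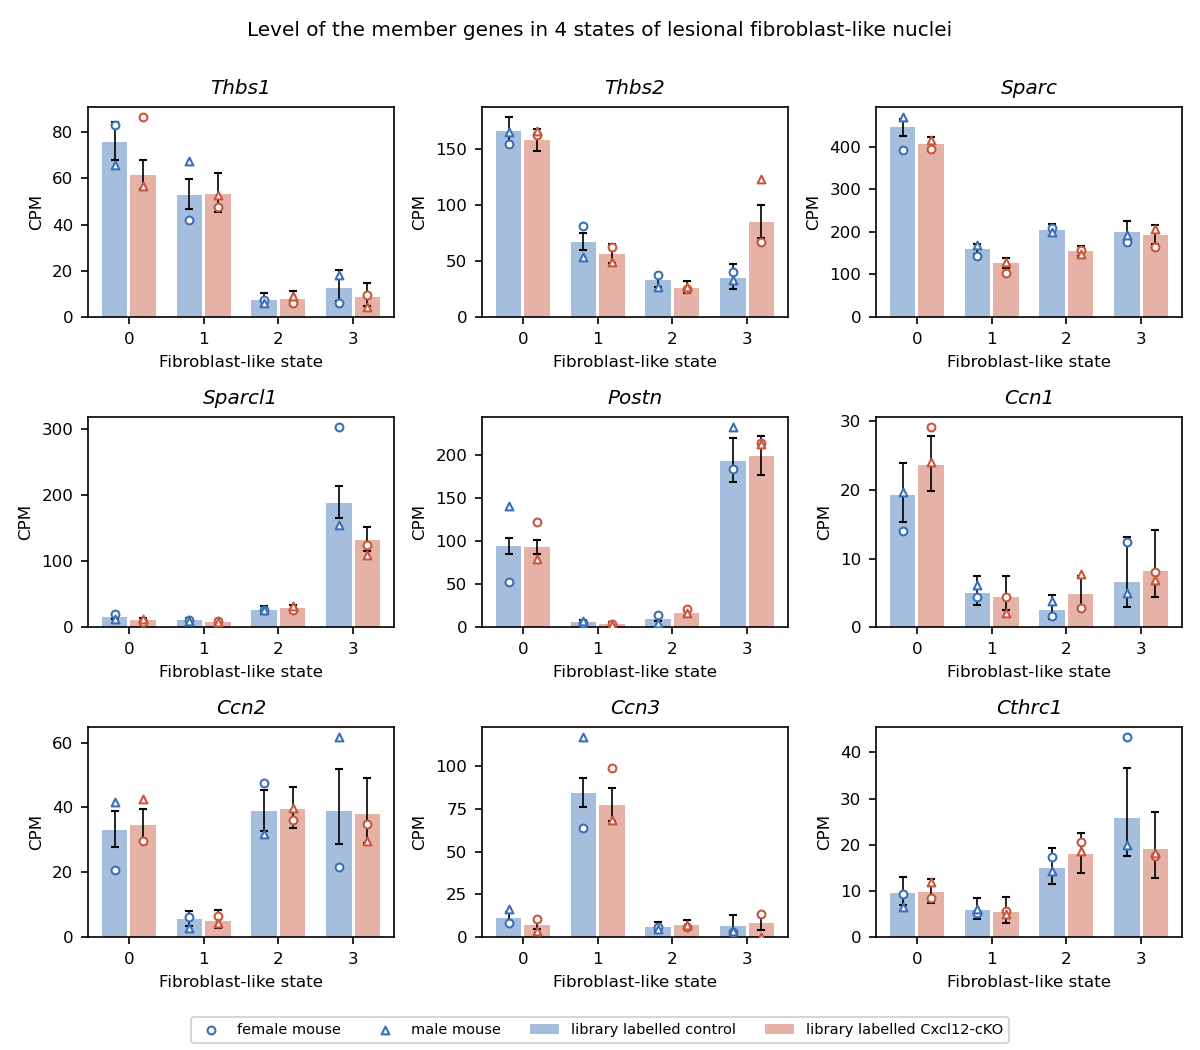
Level of each matricellular gene (CPM of summed UMIs) in the 4 states of lesional fibroblast-like nuclei. Bars are the control-labelled library and the cKO-labelled library with 95% Poisson intervals, open points are the female and male mouse of each library. Thbs1, Thbs2, Sparc and Ccn1 have their tallest bars in state 0, Ccn3 in state 1, and Sparcl1 and Postn in state 3, where Postn stands at 193 and 198 CPM.

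Markers of other cells were read in the same states, since nuclei can take up free RNA or be joined in a droplet. The 8 myeloid markers summed to 120 CPM in state 0, 54.9 CPM in state 1, 74.7 CPM in state 2 and 159 CPM in state 3, with none at 0 UMIs. The 6 osteoblast markers summed to 894 CPM in state 0 and to 328, 388 and 359 CPM in states 1, 2 and 3, with 1 of the 6 at 0 UMIs in states 1 and 2. The 6 smooth muscle markers summed to 361 CPM in state 0 and 77.7 to 107 CPM elsewhere, with 1 or 2 of the 6 at 0 UMIs. The osteoblast and smooth muscle sums were thus highest in the state that also led for Sparc, Thbs1, Thbs2 and Ccn1. The 6 astrocyte markers summed to 273 and 363 CPM in states 0 and 1 and to 1036.5 and 1334.5 CPM in states 2 and 3, with none at 0 UMIs. The 6 pericyte markers summed to 291, 93.5, 316 and 448 CPM in states 0 to 3, with 1 of the 6 at 0 UMIs in states 0 and 1. The astrocyte and pericyte sums were highest in state 3, the top state of Sparcl1 and Postn. Some of these lists hold genes that fibroblasts share. Their part in the levels of the matricellular genes was not tested.

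The promoters of Thbs2, Sparc, Postn and Ccn1 are shown because these genes were past the fold above the other fibroblast-like nuclei in state 0. Each run is the 250 bases before a RefSeq transcription start on GRCm38.p6, 5′ to 3′ on the gene's strand, and 5 of the 10 genes matched an entry. Capitals mark matches to 3 motifs, searched on both strands. The core of sites bound by TEAD factors was searched as CATTCC. The AP-1 site was searched as TGACTCA. The TATA box was searched as TATAAA, and no motif contains another.
Thbs2, chr17:14694263-14694512, minus strand: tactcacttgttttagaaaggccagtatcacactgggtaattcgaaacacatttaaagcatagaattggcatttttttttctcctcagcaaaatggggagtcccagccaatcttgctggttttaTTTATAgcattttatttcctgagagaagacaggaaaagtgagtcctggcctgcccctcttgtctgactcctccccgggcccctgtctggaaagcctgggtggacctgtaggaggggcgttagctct
Sparc, chr11:55420081-55420330, minus strand: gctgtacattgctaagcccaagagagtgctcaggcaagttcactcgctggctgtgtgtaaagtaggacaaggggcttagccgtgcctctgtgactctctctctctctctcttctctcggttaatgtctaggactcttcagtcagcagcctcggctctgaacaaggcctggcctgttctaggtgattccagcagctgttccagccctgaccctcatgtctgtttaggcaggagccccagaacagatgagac
Postn, chr3:54360857-54361106, plus strand: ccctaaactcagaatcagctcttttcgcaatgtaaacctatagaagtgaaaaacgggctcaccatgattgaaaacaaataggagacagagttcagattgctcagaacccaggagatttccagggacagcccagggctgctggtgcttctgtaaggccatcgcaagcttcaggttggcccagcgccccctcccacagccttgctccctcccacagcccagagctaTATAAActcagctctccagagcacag
Ccn1, chr3:145649986-145650235, minus strand: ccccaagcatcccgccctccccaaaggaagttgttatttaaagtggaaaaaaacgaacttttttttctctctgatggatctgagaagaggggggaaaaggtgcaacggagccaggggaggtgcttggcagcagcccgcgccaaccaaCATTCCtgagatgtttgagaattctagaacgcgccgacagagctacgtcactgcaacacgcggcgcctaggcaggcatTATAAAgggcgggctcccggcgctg
Ccn1 held a CATTCC starting 103 bases before the start and a TATAAA 25 bases before it, and Postn held a TATAAA 26 bases before the start shown. Another RefSeq start of Postn, with its window at chr3:54359017-54359266, held none of the motifs. Thbs2 held the TATA letters on the other strand, 126 bases before the start, far from the usual place of a TATA box. Sparc held none of the 3 motifs. The promoter of Thbs4, not shown because that gene was near absent from fibroblast-like nuclei, held CATTCC starting 197 and 192 bases before its start. Of all 32841 promoters of the same length, 12.6% hold the TEAD core, 4.46% the AP-1 site and 12.4% the TATA letters. The matches are letters in a window and were not tied to any binding measured here.

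The comparison of the libraries asks whether matricellular RNA of scar fibroblasts differs where fibroblast Cxcl12 is labelled as deleted. Over all lesional fibroblast-like nuclei, 1 of 9 genes was past 1.5-fold, against 5.78% of 14299 genes tested (3.23% higher and 2.55% lower in the cKO-labelled library). That gene was Ccn3, with 33.8 CPM in the control-labelled library and 22.1 CPM in the cKO-labelled library, a log2 ratio of -0.61 (95% interval -0.82 to -0.40). The median log2 ratio was 0.10 over the 9 genes and 0.00 over all genes. Postn had a log2 ratio of 0.37 (0.23 to 0.51) and Ccn1 of 0.52 (0.19 to 0.86), both short of the fold. The ratios of Thbs1 (-0.15), Sparc (-0.04), Sparcl1 (-0.16) and Cthrc1 (0.10) had intervals that include 0, and those of Thbs2 (0.12) and Ccn2 (0.21) lay just above it. The Ccn3 value lay just past the fold, and no gene was past it with the mean CPM per nucleus, with the 10 genes kept in the clustering or with state shares set equal. Of the type I collagen genes, Col1a1 had 681 and 667 CPM, while Col1a2, whose promoter drives the Cre recombinase, had 1977 and 1428 CPM, a log2 ratio of -0.47 (-0.50 to -0.44), and was lower in both sexes (-0.54 and -0.47).

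**Figure D3:**
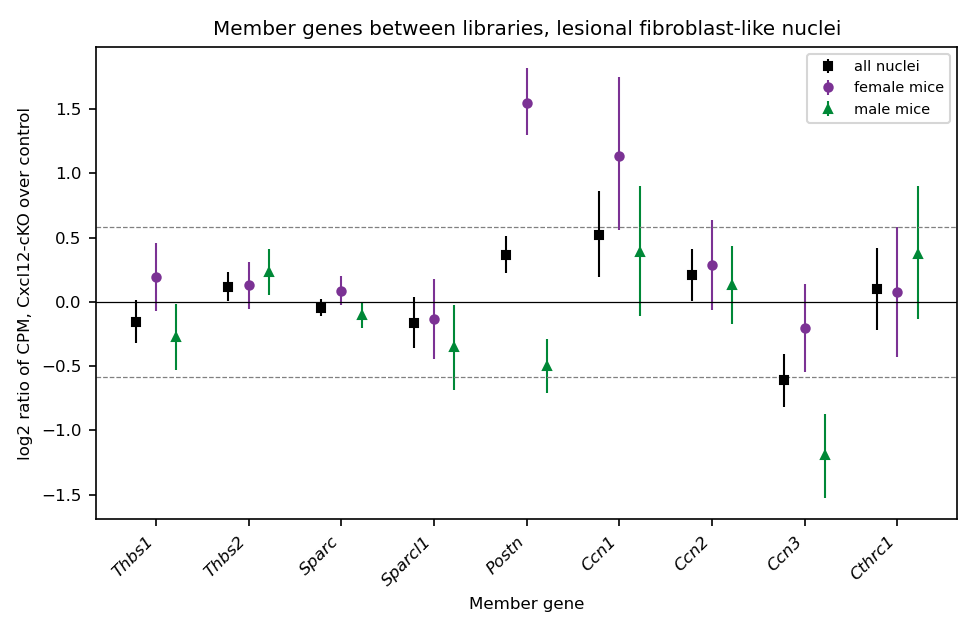
Log2 ratio of CPM in the cKO-labelled library over the control-labelled library for 9 matricellular genes in lesional fibroblast-like nuclei, with 95% counting intervals, for all nuclei and for the female and the male mice. Postn lies at 1.55 between the females and at -0.50 between the males. Ccn3 lies at -0.20 and -1.19.

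The 2 mice of a library could be told apart by Xist and Y-linked transcripts, and they differed in the genes that differed between libraries. Postn stood at 29.1 CPM in the female and 76.5 CPM in the male of the control-labelled library, and at 85.4 and 54.2 CPM in the female and male of the cKO-labelled library. The libraries thus overlapped, and the ratio ran in opposite directions, 1.55 (1.30 to 1.82) between the females and -0.50 (-0.71 to -0.29) between the males on the log2 scale. Ccn3 stood at 28.9 and 43.7 CPM in the female and male of the control-labelled library, and at 25.2 and 19.1 CPM in the other. Its log2 ratio was -0.20 (-0.54 to 0.14) between the females and -1.19 (-1.52 to -0.87) between the males, so both mice of the cKO-labelled library were below both of the other, though the female gap was within counting error. Ccn1 stood at 6.43 and 10.2 CPM against 14.2 and 13.4 CPM, so both mice of the cKO-labelled library were above both of the other. Its log2 ratios were 1.14 between the females and 0.39 between the males, and the male gap was within counting error. Past 1.5-fold were 2 of 9 genes between the females (Postn and Ccn1), against 9.87% of all genes, and 1 of 9 between the males (Ccn3), against 5.5%.

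Within 1 library, male and female mice were as far apart as the libraries were for some of these genes. Postn was higher in the male by a log2 ratio of 1.39 (1.14 to 1.66) in the control-labelled library and lower by -0.66 (-0.87 to -0.45) in the cKO-labelled library. Ccn3 gave 0.59 (0.31 to 0.89) and -0.40 (-0.77 to -0.03). Sparc varied less, from 228 CPM to 283 CPM over the 4 mice. Thbs2 was the steadiest, from 84.0 CPM to 98.5 CPM.

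The 4 states were not equally common in the libraries. State 0 made up 30.6% and 37.7% of lesional fibroblast-like nuclei, state 1 27.7% and 19.6%, state 2 32.3% and 30.6%, and state 3 9.37% and 12.1%, in the control-labelled and cKO-labelled libraries. State 1, the Ccn3 state, thus had a smaller share where Ccn3 was lower. Within state 1, Ccn3 had 84.3 and 77.0 CPM, a log2 ratio of -0.13 (-0.37 to 0.10). With the state shares set equal, an alternative added after the data were seen, the log2 ratio of Ccn3 was -0.16, that of Postn 0.03 and that of Ccn1 0.29. The ratio of Sparc moved away from 0 in that alternative, to -0.21, as did that of Sparcl1, to -0.35, and Thbs2 stood at -0.05. Between the females the Ccn3 ratio in state 1 was 0.63 (63.9 and 98.6 CPM) and between the males -0.77 (117 and 68.3 CPM).

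State by state, the genes past 1.5-fold between libraries were few. In state 0 it was 1 of 9, where 6.76% of all genes were: Ccn3, with 11.3 and 6.92 CPM (log2 ratio -0.70). In state 1 it was 0 of 5, where 5.55% were. In state 2 it was 1 of 8, where 6.38% were: Postn, with 9.69 and 16.6 CPM (0.77). In state 3 it was 1 of 6, where 7.67% were: Thbs2, with 34.9 and 84.5 CPM (1.26, 0.77 to 1.81). Thbs2 in state 3 was higher in the cKO-labelled library in both mice, 40.2 and 67.3 CPM in the females and 33.4 and 123 CPM in the males. The female gap was within counting error, with a log2 ratio of 0.70 (-0.16 to 1.75). Postn in state 0 was level over both mice, 93.96 and 92.5 CPM, while the females had 52.2 and 121.7 CPM and the males 139.8 and 79.4 CPM.

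Smaller differences inside states ran one way for Sparc. Its log2 ratio was -0.33 (-0.51 to -0.15) in state 1 and -0.40 (-0.55 to -0.25) in state 2, and in these states it was negative in each sex. In state 2 Sparc had 204 and 155 CPM. In states 0 and 3 it was -0.14 and -0.05, and over all fibroblast-like nuclei -0.04. Sparcl1 in state 3 had 188 and 133 CPM, a log2 ratio of -0.51 (-0.78 to -0.23), with 303 and 125 CPM in the females and 155 and 109 CPM in the males.

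Marker sums of other cells in fibroblast-like nuclei also differed between the libraries. The 8 myeloid markers summed to 78.9 and 108 CPM and the 6 osteoblast markers to 606 and 494 CPM in the control-labelled and cKO-labelled libraries, and the 6 astrocyte markers to 559 and 658 CPM. By mouse, the myeloid sum was lowest in the control-labelled female, 65.7 CPM, and highest in the cKO-labelled female, 123 CPM, with 90.8 and 95.5 CPM in the males. Postn had its lowest and highest value in the same mice. The part of these cells in the Postn ratio was not tested.

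Outside fibroblasts, 44 pairs of a matricellular gene and a cell class had enough UMIs, and 9 were past 1.5-fold between libraries. Lesional osteoblast-like nuclei had 0 of 6, where 16.8% of all genes were past the fold, and lesional endothelial-like nuclei 0 of 2, with 14.5%. Lesional myeloid-like nuclei had 1 of 7 (Postn, 24.1 and 8.80 CPM, log2 ratio -1.45), with 6.36%, where Col1a1 had 255 and 143 CPM. Lesional nuclei of the astrocyte class, which takes in oligodendrocyte precursor-like nuclei, had 4 of 8, with 7.89%: Sparcl1 (-0.75), Postn (-1.35), Cthrc1 (-1.001) and Ccn2 (0.73). Oligodendrocyte-like nuclei had 1 of 1 (Sparc, -1.15), with 11.1%, excitatory-neuron-like nuclei 1 of 4 (Cthrc1, -1.22), with 6.99%, and inhibitory-neuron-like nuclei 2 of 2 (Sparc, -0.85, and Sparcl1, -0.61), with 18.6%. In the parenchyma there were 0 of 9 in excitatory-neuron-like nuclei, with 3.65%, 0 of 4 in inhibitory-neuron-like nuclei, with 3.72%, and 0 of 1 in the astrocyte class, with 17.0%. Beside the oligodendrocyte-like Sparc value, Col1a1 had 223 and 132 CPM in the same nuclei, and its part was not tested. In the astrocyte class Col1a1 had 181 and 87.1 CPM, and the class holds a subcluster with 5 of 7 fibroblast markers raised, subcluster 4, of 173 nuclei of which 39.9% had UMIs of both sexes. With such mixed subclusters removed, an alternative added after the data were seen, 8 of 38 pairs were past the fold. Postn in the astrocyte class, Cthrc1 in excitatory-neuron-like and Sparc in inhibitory-neuron-like nuclei then had too few UMIs to be counted. Postn had 12 UMIs (6.10 CPM) in the control-labelled library and 7 UMIs (2.74 CPM) in the cKO-labelled library. Cthrc1 had 39 UMIs (5.92 CPM) and 8 UMIs (2.79 CPM). These pairs were thus left uncounted and were not shown to come within the fold. The lesional counts were then 4 of 7 in the astrocyte class, with 7.33% of all genes, where Thbs4 (-0.90) joined, and 2 of 4 in myeloid-like nuclei, with 6.47%, where Sparc (-0.81) joined. They were 0 of 3 in excitatory-neuron-like nuclei, with 7.13%, 1 of 1 in inhibitory-neuron-like nuclei, with 17.7%, and 0 of 2 in endothelial-like nuclei, with 15.1%. In the parenchyma they were 0 of 9 in excitatory-neuron-like nuclei, with 3.7%, and 0 of 4 in inhibitory-neuron-like nuclei, with 3.82%.

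In osteoblast-like nuclei the mice again split. Sparc had 769 and 979.6 CPM in the female and male of the control-labelled library, and 1592 and 558 CPM in those of the cKO-labelled library, which had 22 and 37 such nuclei. Postn had 937 and 916 CPM against 1464.5 and 601 CPM. Col1a1 split likewise, with 2325 and 2856 CPM against 3924 and 1642 CPM, so the matricellular genes moved with collagen in these few nuclei.

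Lesion and parenchyma were compared within the astrocyte-like subclusters, where both regions had nuclei (233 and 318 lesional, 37 and 44 parenchymal in the control-labelled and cKO-labelled libraries). Regions differed broadly here, with 47.7% and 49.1% of all genes past 1.5-fold, so a count of 3 of 4 and 5 of 5 matricellular genes is read against that. Sparcl1 had 379 CPM in the lesion and 1231 CPM in the parenchyma of the control-labelled library, a log2 ratio of -1.70. In the cKO-labelled library it had 225 and 1129.8 CPM, a log2 ratio of -2.33. Sparcl1 was thus lower in the lesion in each library. Sparc ran the other way, with 104 and 54.5 CPM (0.87, interval -0.01 to 2.03) and 94.1 and 26.5 CPM (1.72), as did Thbs2, with 44.7 and 10.9 CPM (1.73) and 46.4 and 4.41 CPM (2.82). Lesional astrocyte-like nuclei also held Col1a1, at 71.1 and 44.5 CPM, and the part of free RNA in their Sparc and Thbs2 was not tested. The parenchymal values rest on 10 and 6 UMIs for Sparc and on 2 and 1 for Thbs2.

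The thrombospondins of astrocyte-like nuclei went apart, since Thbs4 was lower in the lesion by log2 ratios of -1.22 and -1.32 from few parenchymal UMIs. Ccn1 depended on the library. It had 99.6 CPM in the lesion and 87.1 CPM in the parenchyma of the control-labelled library (log2 ratio 0.16), and 94.7 and 17.7 CPM in the cKO-labelled library (2.26), where the parenchymal value rests on 4 UMIs. Ccn2 had 30.5 and 53.3 CPM in the lesion and 0 UMIs in the parenchyma of both libraries. Against a floor of 3 counts per library, Ccn2 was 1.87-fold and 4.03-fold higher in the lesion. These folds leave out the counting error of the lesional UMIs. The lower ends of the 95% intervals of the log2 ratios were 0.51 and 1.68.

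**Figure D4:**
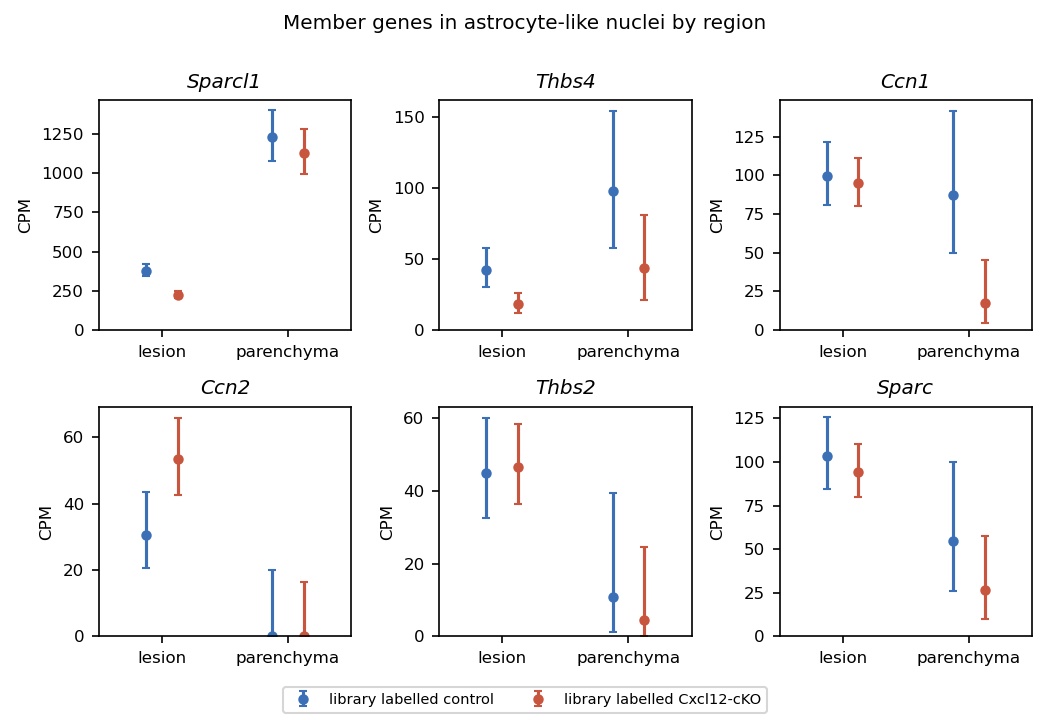
Level (CPM of summed UMIs, 95% Poisson intervals) of matricellular genes in astrocyte-like nuclei of lesion and parenchyma, for the control-labelled library and the cKO-labelled library. Sparcl1 and Thbs4 are higher in the parenchyma in both libraries. Sparc and Thbs2 are higher in the lesion, and Ccn2 has no UMI in the parenchyma.

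Excitatory-neuron-like nuclei gave 4 of 8 genes past 1.5-fold between regions in the control-labelled library, where 28.4% of all genes were, and 5 of 8 in the cKO-labelled library, where 30.9% were. Over both libraries it was 7 of 10, where 30.7% were. Sparc had 12.1 CPM in the lesion and 2.44 CPM in the parenchyma of the first, a log2 ratio of 2.31, and Col1a1 had a ratio of 2.33 in the same nuclei. In the other library the ratios were 2.05 for Sparc and 1.70 for Col1a1. Sparc therefore moved with a collagen gene that neurons do not make. With the subclusters removed in which many nuclei held UMIs of both sexes, the Sparc ratio over both libraries was 1.56 instead of 2.20, and that of Postn -0.23 instead of 1.03. Ccn3, a gene these neurons carry in the parenchyma, was lower in the lesion, with 6.71 against 12.1 CPM (-0.84) and 7.90 against 12.2 CPM (-0.60). The sums pool all layers, and the part of the layer mix in these ratios was not tested. Sparcl1 stayed within 1.5-fold, with 47.6 against 50.6 CPM and 42.0 against 52.8 CPM.

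The genes most like each matricellular gene were found by Pearson r of log2(CPM + 1) over 26 sums of cell class, region and library, among 16370 genes. The sums share libraries and depth, so r is a description. Sparc was nearest to Col1a1 (r = 0.97), Thbs2 to Col5a2 (0.97) and Postn to Col6a3 (0.94), each a collagen gene. Ccn3 was nearest to Slco4a1 (0.89), which also leads state 1, and Sparcl1 to Prex2 (0.94), which also leads state 3. Thbs4 was nearest to Gpr37l1 (0.95) and Ntsr2, both astrocyte genes. Ccn1 (Stxbp4, 0.88), Ccn2 (Atp10a, 0.87) and Cthrc1 (Sgcd, 0.85) had the weakest nearest genes.

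Lists of pathway genes gave the setting of these values in lesional fibroblast-like nuclei, by counts past 1.5-fold between libraries. Of 22 other matricellular genes, 20 had enough UMIs, 3 were higher and 3 lower in the cKO-labelled library, and the median log2 ratio was 0.10 against 0.00 over all genes. The ends of that list were Ccn4 (0.89) and Fbln2 (0.77), and Ccn5 (-1.24) and Comp (-0.81), a pair of CCN genes at opposite ends. Of 21 receptors and partners, 1 was higher (Stab1, a Sparc-clearing scavenger receptor of macrophages and some endothelium, 0.59) and 0 lower, with a median of 0.02. The myeloid marker sum in these nuclei was also higher in the cKO-labelled library, as given above, and its part in the Stab1 ratio was not tested. Of 21 upstream TGFβ and YAP pathway genes with enough UMIs, 0 were past the fold either way, with a median of 0.07 and a range from Ajuba (-0.41) to Smad7 (0.42). Of 16 myofibroblast genes outside the group, 0 were higher and 1 was lower (Tnc, -0.78, which the list of other matricellular genes also holds), with a median of 0.06. In state 0, 12 of the 16 myofibroblast genes and 8 of the 20 other matricellular genes were past the fold above the other fibroblast-like nuclei, where 10.7% of all genes were. Of the 18 genes on the myofibroblast list, Acta2 and Lrrc15 had too few UMIs to be counted. Col1a1, Col3a1 and Col5a2 of that list are also markers by which state 0 was named, so the count and the name share them. Tnc was highest in state 2 (162 CPM) and Adam12 in state 3 (2729 CPM), against 68.0 and 1801 CPM in state 0.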

How the data were processed

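Nuclei were analysed from 1 library per genotype at 21 dpi, each split by oligonucleotide tags into a lesion and a parenchyma matrix. The values are raw UMI counts per gene and nucleus, deposited by the authors and made with Cell Ranger 9.0.0 on GRCm39, per the submitters' processing notes. The tag counts deposited beside them were used only to check each nucleus's region. No per-sample column was left unused (0). The member genes, lists and comparisons were chosen with earlier results of these data known.

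Barcodes outside the 2.5 percentiles of each tail for UMIs (757.2 to 36243.8), genes (584.2 to 6418.6) or above 8.75% mitochondrial UMIs were removed, leaving 21743 of 23489. No doublets were removed: Scrublet called 27, 2, 15 and 1 barcodes, under 0.5% of each matrix, and so had not worked. The libraries shared 47 barcodes, 22 of them between the lesion matrices and 1 between the parenchyma matrices, and regions of 1 library shared 0. Nuclei were clustered with scanpy 1.11.5 (3000 variable genes without the member genes, 30 components, 20 neighbours, Leiden resolution 0.25) and named from marker lists. Subclusters in which 25% or more of nuclei held UMIs of both sexes were called mixed, a rule chosen after the data were seen, and got no cell type name. Mice were told apart by Xist against Ddx3y, Uty, Kdm5d and Eif2s3y.

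CPM is 1 gene's UMIs per 1000000 UMIs summed over a group of nuclei, with exact Poisson 95% intervals. Log2 ratios had 0.5 added to each sum and exact conditional binomial 95% intervals. Shares had exact Clopper-Pearson intervals. All cover counting error only. With 1 library per genotype no test was run. A gene counted as past the fold at 1.5-fold with at least 50 UMIs over both groups. The interval code was tested on simulated counts. Named were the 10 genes, the 3 genes most like each by Pearson r, of which the text gives the nearest (1 is not reported here) and, for 1 gene, the next, and the 2 highest and 2 lowest genes of each list, of which the text gives some. Other genes are named as markers, leading genes of a cluster or measures of free RNA. Promoters came from RefSeq (GRCm38.p6) and no coordinate of GRCm39 was used. Alternatives were other clustering and filtering, each sex alone, nuclei weighted alike, other folds and minimums, no thinning, and those named as added after the data were seen. Python 3.11.15, scipy 1.17.1 and numpy 2.4.6 were used.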

Additional observations from a re-analysis of the deposited data

Results flagged for a closer look

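In 7 cases the log2 ratio of the cKO-labelled library over the control-labelled library ran in opposite directions in the female and the male mice, with both counting intervals clear of 0. The difference between the sexes was not itself tested, and each sex stands for 1 mouse per library. Postn gave 1.55 between the females and -0.50 between the males over all lesional fibroblast-like nuclei, 1.21 and -0.82 in late inner-like state 0, and 0.65 and -0.60 in osteoblast-like nuclei. Sparc gave 1.06 and -0.80 in osteoblast-like nuclei. Ccn3 gave 0.63 and -0.77 in state 1, the state in which it is highest. Sparcl1 gave 0.44 and -0.48 in the astrocyte class of the parenchyma. Cthrc1 gave -0.55 and 0.69 in inhibitory-neuron-like nuclei of the parenchyma.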

How the results depend on the processing

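The count of matricellular genes past 1.5-fold between libraries in lesional fibroblast-like nuclei was 1, and it became 2 in the female mice alone and 0 with the mean CPM per nucleus, with the 10 genes kept in the clustering, with state shares set equal and with a fold of 2. The count between regions in excitatory-neuron-like nuclei was 7 over both libraries, 4 in the control-labelled library alone and 5 in the other alone. Of the single values past 1.5-fold, 3 changed sign. The Ccn1 ratio of fibroblast-like over other lesional nuclei in the control-labelled library was 0.67 with the 10 genes kept in the clustering, where osteoblast-like nuclei joined the fibroblast cluster. The Ccn1 ratio of lesion over parenchyma in the astrocyte class was -0.22 in the control-labelled library alone. The Postn ratio of lesion over parenchyma in excitatory-neuron-like nuclei was -0.23 with mixed subclusters removed. Where the value was short of 1.5-fold, 16 of 131 alternative values had the other sign, among them Postn between libraries in the male mice alone. Of the single values other than those 3, 83 between libraries stayed within their counting interval and 16 moved. For fibroblast-like over other nuclei 108 stayed and 53 moved, and for regions 59 stayed and 9 moved. All 18 shares of nuclei moved when nuclei were not thinned. No paired analysis was possible because each genotype has 1 library and no test was run, and no library could be left out. Each sex alone leaves out 1 mouse per library, and the count between libraries in lesional fibroblast-like nuclei was then 2 in the females and 1 in the males, with different genes. Depth limits Thbs4 in fibroblasts and Sparc, Thbs2, Thbs4, Ccn1 and Ccn2 in parenchymal astrocyte-like nuclei, where counts were below 30 UMIs.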
